A study of Mus musculus with 10 samples.

Results

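Hepatic expression of 10 genes for enzymes that make serine, asparagine, proline and cysteine, or that feed these pathways, was compared between ASK1+hep and ASK1f/f mice. The genes were chosen by name, as amino acid synthesis and mitochondrial one-carbon enzymes known as targets of the transcription factor ATF4. Earlier results of these data were known when they were chosen. The genes are Asns, Phgdh, Psat1, Psph, Shmt2, Mthfd2, Pycr1, Aldh18a1, Pck2 and Cth. They are 10 of the 54532 genes in the deposited table, and 8 of them were among the 13306 genes that passed a filter on low values. Bulk RNA sequencing was performed on livers of 5 mice of each genotype that had eaten HFD for 7 weeks, started at the age of 6 weeks, with a fast of 5 h before tissue collection. Both genotypes were on a C57BL/6J background and carried a murine ASK1 cDNA, kept silent by a lox-stop-lox cassette, in the ROSA26 locus. ASK1+hep mice carried Alb-Cre in addition, which deletes the stop cassette in hepatocytes, so that the added ASK1 comes from the ROSA26 transgene in cells that express albumin. The ASK1f/f mice are littermates without Cre, so the presence of Cre and the overexpression of ASK1 cannot be told apart here.

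In mammals, the serine pathway branches from glycolysis at 3-phosphoglycerate and ends in serine, whose carbon enters folate metabolism as glycine is made. Asparagine is made from aspartate with nitrogen from glutamine, and proline is made from glutamate in mitochondria. Several of these enzymes are encoded by genes that the transcription factor ATF4 is known to switch on when amino acids run short or when the endoplasmic reticulum is under stress, and ATF4 acts there together with C/EBP proteins. In the liver, many of these genes are set by diet, in particular by the supply of protein and of carbohydrate.

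Because the members have this factor in common, their promoters were searched on both strands for TGATGNAA, the core of the C/EBP-ATF response element, and for GTTACA, a second element described for the Asns promoter. The windows came from RefSeq on GRCm38.p6 and ran from 250 bases before to 50 bases after each start site. Windows were matched for 9 of the 10 genes, Psat1 having 2, and Cth was not matched. TGATGNAA occurred in Asns, Pycr1 and Pck2, and in 3.97% of all 32851 windows. GTTACA occurred in Asns and Pck2, and in 8.25% of all windows. The 3 stretches of 30 bases that hold these letters are shown because they set Asns and Pck2, described next, beside a low gene with a match, Pycr1. Each is written 5′ to 3′ on the strand of its gene, and capitals mark the matched letters.
Asns: caTGATGAAActtcccgcacgcGTTACAga
Pycr1: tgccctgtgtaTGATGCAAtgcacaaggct
Pck2: agccttcaaaGTTACATCAgtatcttacag
The Asns stretch lies at chr6:7693205-7693234 on the minus strand, with TGATGAAA starting 23 bases and GTTACA 3 bases before the RefSeq start site. The Pycr1 stretch lies at chr11:120643833-120643862 on the minus strand. The Pck2 stretch lies at chr14:55540152-55540181 on the plus strand, and there the first element reads on the other strand, as TTACATCA, and overlaps GTTACA. With C required at the variable base, TGATGCAA occurred in 0.895% of all windows and among the members in Pycr1 alone. Phgdh, Psat1, Psph, Shmt2, Mthfd2 and Aldh18a1 held neither element in these windows. The members were chosen as ATF4 targets, so the shares of all windows are given as a description, without a test.

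Values are FPKM, in which reads are divided by the length of the gene and the size of the library, so levels can be compared between genes as well as between livers. Libraries held 13367742 to 16163378 reads on genes. Each mouse is a separate animal, and the errors given are SD over mice. Map3k5 encodes ASK1, and its FPKM in replicates 1 to 5 were 6.74, 6.88, 5.77, 4.71 and 19.8 under the label ASK1f/f and 16.4, 11.1, 7.68, 12.4 and 15.2 under the label ASK1+hep. The library labelled ASK1f/f replicate 5 thus went against its label, with the highest Map3k5 level of the 10, and the fold changes of the members are given with and without it. Mitochondrial genes took 4.19% to 10.9% of the reads, and the highest share was that of ASK1+hep replicate 3. The labels do not give the sex of these mice. The Y-linked gene Ddx3y was read in all 10 libraries, at 6.02 to 16.8 FPKM, while Xist did not exceed 0.0129 FPKM. Hepatocyte markers summed to 32151 to 44445 FPKM in ASK1f/f and to 38282 to 47374 FPKM in ASK1+hep livers, and the lowest sum was that of the library labelled ASK1f/f replicate 5.

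Levels of the 10 genes differed widely. Cth, which makes cysteine from cystathionine, and Shmt2, the mitochondrial serine hydroxymethyltransferase, were the most abundant, with means of 88.7 and 86.6 FPKM over the 10 livers. Asns followed at 4.52 FPKM, and the ratio of the Shmt2 mean to the Asns mean was 19.1. Psph was at 1.19 FPKM, Mthfd2 at 0.494 FPKM and Pck2 at 0.438 FPKM. Psat1 and Aldh18a1 were both at 0.259 FPKM, Pycr1 at 0.134 FPKM and Phgdh at 0.128 FPKM. Within this order Shmt2 lay above Asns and Psph above Mthfd2 with no overlap of their ranges. Pck2 lay above Psat1 and Aldh18a1 above Pycr1 in 10 of 10 livers each. Neighbours that did not differ beyond their SD were Cth and Shmt2, Asns and Psph, Mthfd2 and Pck2, Psat1 and Aldh18a1, and Pycr1 and Phgdh. The serine pathway was therefore near the detection limit at its first step in these livers, with 2 to 9 reads of Phgdh per library, whereas Shmt2, which uses serine, and Cth had at least 2272 reads in each library.

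**Figure D1:**
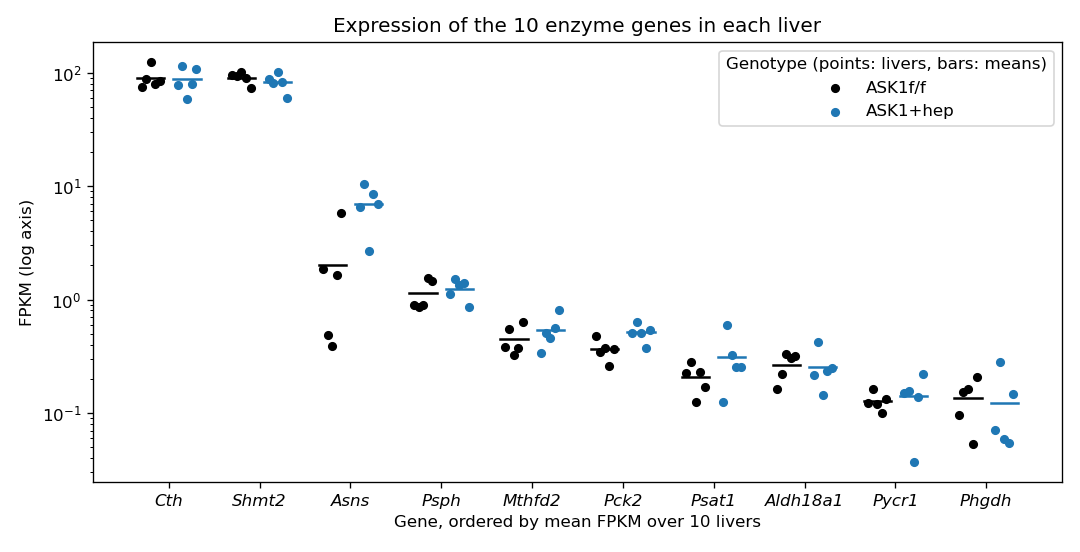
FPKM (log axis) of the 10 enzyme genes in each of 5 ASK1f/f (black points) and 5 ASK1+hep livers (blue points), with horizontal bars for the group means. Asns stands apart in its spread, with a coefficient of variation of 78.8%. For Asns, and also for Pck2, 4 of 5 ASK1+hep livers lie above every ASK1f/f liver, while the groups overlap widely for Cth, Shmt2 and Psph.

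Of the 10 genes, Asns differed most between the genotypes, and it was higher in ASK1+hep livers. Asns (ENSMUSG00000029752) encodes asparagine synthetase, the enzyme that makes asparagine from aspartate and glutamine, and its 12 exons lie on the minus strand at chr6:7675169-7693254 (GRCm38). Levels in ASK1f/f replicates 1 to 5 were 1.86, 0.488, 0.391, 1.63 and 5.77 FPKM. Levels in ASK1+hep replicates 1 to 5 were 6.56, 10.4, 2.65, 8.57 and 6.93 FPKM. Thus 4 of 5 ASK1+hep livers lay above every ASK1f/f liver, and the groups overlapped because replicate 5 of ASK1f/f was high and replicate 3 of ASK1+hep was low. The means were 2.03 ± 2.19 FPKM against 7.02 ± 2.87 FPKM (SD, n = 5 each), a ratio of 3.46. These values rest on 16 to 367 reads per library. Within ASK1f/f alone the levels spanned 14.8-fold, and the coefficient of variation over the 10 livers was 78.8%. On the log2(FPKM + 1) scale, which understates the change of low genes, the fold change was 1.56 with a standard error of 0.42 and a 95% interval from 0.65 to 2.48 (limma, unadjusted p = 0.0030, Benjamini-Hochberg adjusted p = 0.726 over 13306 genes). The exact two-sided permutation test over all ways to divide the livers into 5 and 5, whose smallest p is 0.00794, gave p = 0.0159. The adjusted threshold of 0.05 was not passed.

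Without the library labelled ASK1f/f replicate 5, the 4 other ASK1f/f livers held 0.391 to 1.86 FPKM of Asns, all below the lowest ASK1+hep liver at 2.65 FPKM. Their mean was 1.09 ± 0.762 FPKM (SD, n = 4), and the ratio of the means was 6.42. The log2 fold change was then 1.92 with a standard error of 0.33 (limma, unadjusted p = 0.00014, adjusted p = 0.180), and the exact permutation test gave p = 0.0159 with the same smallest p of 0.00794. Across all 18 alternative settings of the comparison the log2 fold change of Asns stayed between 1.35 and 2.60, the unadjusted limma p was under 0.05 in 18 of 18, and the adjusted p ranged from 0.180 to 0.917.

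**Figure D2:**
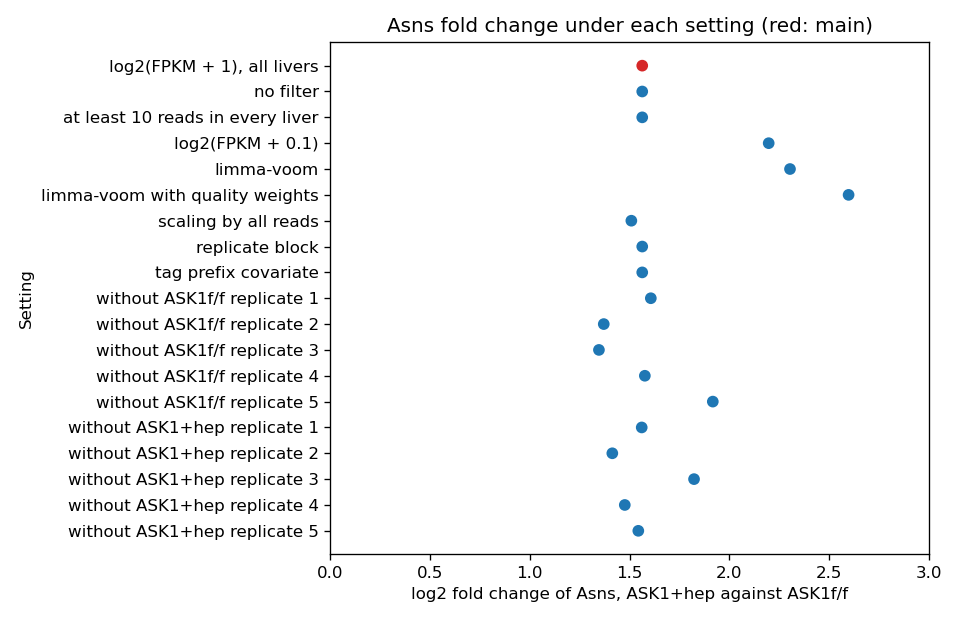
Log2 fold change of Asns, ASK1+hep against ASK1f/f, in the main comparison (red point) and under 18 alternative settings (blue points). All values lie to the right of 0, between 1.35 and 2.60, with the largest from limma-voom with quality weights.

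Asns was set beside Map3k5 and Atf4 liver by liver. The library labelled ASK1f/f replicate 5, with 19.8 FPKM of Map3k5, had 5.77 FPKM of Asns, the highest of its group. ASK1+hep replicate 3, with the lowest Map3k5 level of its group at 7.68 FPKM, had 2.65 FPKM of Asns, the lowest of its group. Within the remaining ASK1+hep livers the order was not the same, since replicate 2 had the highest Asns level, 10.4 FPKM, at 11.1 FPKM of Map3k5. Atf4, which encodes the transcription factor named above, was at 30.8, 40.3, 33.3, 32.0 and 26.2 FPKM in ASK1f/f and at 27.9, 44.1, 66.9, 58.8 and 31.0 FPKM in ASK1+hep replicates 1 to 5. Its highest level, in ASK1+hep replicate 3, thus went with the lowest Asns level of that group, and the lowest Atf4 level, in ASK1f/f replicate 5, with the highest Asns level among ASK1f/f livers. The log2 fold change of Map3k5 was 0.60 with a standard error of 0.32 (limma, unadjusted p = 0.0821, adjusted p = 0.812). The log2 fold change of Atf4 was 0.41 with a standard error of 0.23 (limma, adjusted p = 0.812). Without the library labelled ASK1f/f replicate 5 it was 0.34, and without ASK1+hep replicate 3 it was 0.26. These are levels of Atf4 RNA, and the amount and activity of ATF4 protein were not measured here. The paper's evidence for ATF4 was of other kinds. It found ATF4 among the top enriched transcription factors in the RNA sequencing data of these same livers. Knockdown of ATF4 lowered Fgf21 in ASK1+hep hepatocytes but not in ASK1f/f hepatocytes.

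Relations of Asns to 3 genes, chosen after the data were seen, were computed over the 10 livers on the log2(FPKM + 1) scale, with p-values from 100000 permutations and adjusted over the 3. For Map3k5, Pearson r was 0.798 (permutation p = 0.00904, adjusted p = 0.0271) and Spearman rho 0.697 (permutation p = 0.0310, adjusted p = 0.0465), and r was 0.865 without replicates 4 and 5 of ASK1f/f, the livers farthest from the median of Map3k5. For Atf4, r was 0.0896 (permutation p = 0.800, adjusted p = 0.800) and rho 0.0909 (permutation p = 0.811, adjusted p = 0.811), with r at -0.14 without replicates 3 and 4 of ASK1+hep. For Fgf21, the hormone gene named in the title of the study, r was 0.620 (permutation p = 0.0598, adjusted p = 0.0897) and rho 0.697 (permutation p = 0.0297, adjusted p = 0.0465), with r at 0.709 without replicates 2 and 3 of ASK1+hep. Genotype enters each of these values, and the adjustment over 3 does not cover the choice of these genes. The permutations exchanged livers between genotypes, so their p-values cannot tell a relation between livers from the difference between genotypes. Ranked by Pearson r with Asns among 13305 genes, Map3k5 was 41st, Fgf21 319th and Atf4 4916th. After each genotype was centred on its own mean, r with Asns was 0.739 for Map3k5, -0.471 for Atf4 and -0.129 for Fgf21, given without a test, and 5 livers are too few for a correlation within a single genotype.

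**Figure D3:**
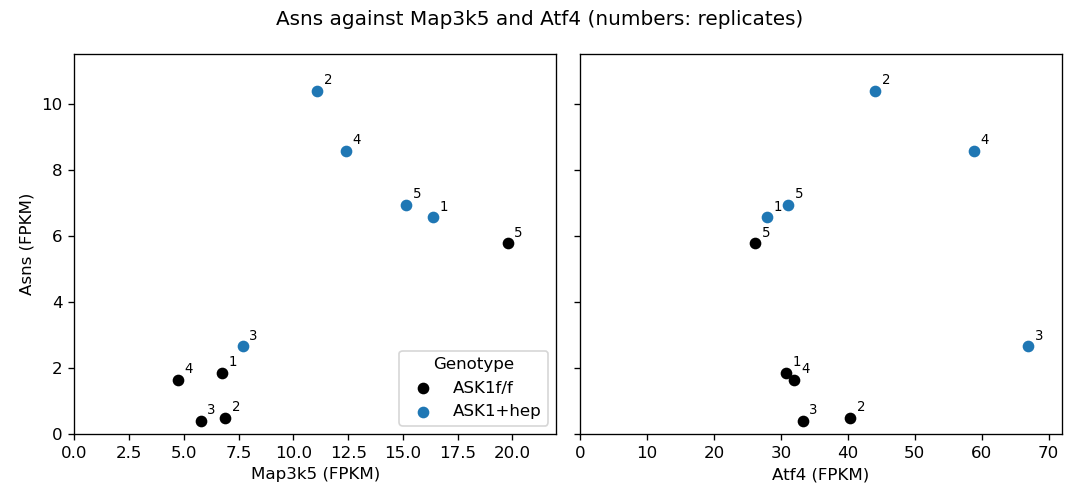
Asns (FPKM, vertical axis) against Map3k5 and Atf4 (FPKM, horizontal axes) in 5 ASK1f/f (black) and 5 ASK1+hep livers (blue), numbered by replicate. ASK1f/f replicate 5 sits with the ASK1+hep livers on the Map3k5 axis, and ASK1+hep replicate 3 has the highest Atf4 level, 66.9 FPKM, at a low Asns level of 2.65 FPKM.

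Pck2 was the other member with an unadjusted p under 0.05, with a small difference on the log2(FPKM + 1) scale at a low level. Its product is the mitochondrial phosphoenolpyruvate carboxykinase, which makes phosphoenolpyruvate from oxaloacetate. Pck2 was at 0.476, 0.342, 0.377, 0.261 and 0.366 FPKM in ASK1f/f and at 0.503, 0.634, 0.511, 0.373 and 0.539 FPKM in ASK1+hep replicates 1 to 5. Again 4 of 5 ASK1+hep livers lay above every ASK1f/f liver, but the low one was replicate 4 and not replicate 3. The means were 0.364 ± 0.0771 FPKM against 0.512 ± 0.0936 FPKM (SD, n = 5 each), a ratio of 1.41, from 31 to 67 reads per library. The log2 fold change was 0.15 with a standard error of 0.06 and a 95% interval from 0.02 to 0.28 (limma, unadjusted p = 0.0317, adjusted p = 0.812), and the exact permutation test gave p = 0.0238. Without the library labelled ASK1f/f replicate 5 the log2 fold change stayed at 0.15 (limma, unadjusted p = 0.0497, adjusted p = 0.851) and the exact permutation test gave p = 0.0556. The unadjusted limma p was under 0.05 in 12 of 18 alternatives. At this level the pseudocount of 1 shrinks the change. The log2 fold change was 0.40 with a pseudocount of 0.1 and 0.48 with limma-voom. An exon of Pck2 overlaps Gm10876 on the opposite strand, which was listed at 0 in all 10 livers.

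The 3 genes of the serine pathway proper did not separate the genotypes. Phgdh, whose product draws 3-phosphoglycerate into the pathway, did not pass the filter and was at 0.135 ± 0.0607 FPKM against 0.122 ± 0.0959 FPKM (SD, n = 5 each, ASK1f/f first), with an exact permutation p = 0.778. At 47 reads over all libraries, a difference in Phgdh was not detectable unless it was large. Psat1, the aminotransferase of the second step, was at 0.126 to 0.284 FPKM in ASK1f/f and at 0.124 to 0.600 FPKM in ASK1+hep livers. Its means were 0.207 ± 0.0611 FPKM against 0.312 ± 0.177 FPKM (SD, n = 5 each), and the upper end was ASK1+hep replicate 2 alone. The log2 fold change of Psat1 was 0.11 with a 95% interval from -0.07 to 0.29 (limma, adjusted p = 0.814). Psph, the phosphatase of the last step, was at 1.13 ± 0.341 FPKM against 1.25 ± 0.261 FPKM (SD, n = 5 each), with a log2 fold change of 0.08 and a 95% interval from -0.18 to 0.35 (limma, adjusted p = 0.881). Leaving out the library labelled ASK1f/f replicate 5 gave log2 fold changes of 0.10 for Psat1 and 0.14 for Psph (limma, adjusted p = 0.892 for both). Psph levels overlapped fully, with the highest and the second highest liver, 1.55 and 1.52 FPKM, in different genotypes. Psph shares exonic sequence with Cct6a on the opposite strand, at 23.9 ± 1.65 FPKM against 24.7 ± 1.83 FPKM (SD, n = 5 each), and the strand setting of the counting is not given in the sources used here, so reads of these genes may not be fully separated.

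Both mitochondrial folate genes overlapped between the genotypes as well. Shmt2, which splits serine into glycine and a one-carbon unit, was at 95.7, 93.2, 100.3, 90.0 and 72.9 FPKM in ASK1f/f and at 88.6, 81.0, 101.7, 82.7 and 59.7 FPKM in ASK1+hep replicates 1 to 5. It was the member with the lowest fold change, -0.14 on the log2 scale with a 95% interval from -0.46 to 0.18 (limma, adjusted p = 0.842), although each value rests on at least 2556 reads. Its exons overlap Ndufa4l2 on the opposite strand, which was at 2.35 ± 0.715 FPKM against 2.14 ± 0.816 FPKM (SD, n = 5 each, ASK1f/f first). Mthfd2, which oxidises the one-carbon unit carried by folate and is low in most adult tissues, was at 0.452 ± 0.131 FPKM against 0.536 ± 0.176 FPKM (SD, n = 5 each). Its log2 fold change was 0.08 with a 95% interval from -0.11 to 0.27 (limma, adjusted p = 0.847). When the library labelled ASK1f/f replicate 5 was left out, the log2 fold changes were -0.21 for Shmt2 and 0.12 for Mthfd2 (limma, adjusted p = 0.883 for both), larger in size than with it. The highest Mthfd2 level, 0.812 FPKM, and the lowest Shmt2 level, 59.7 FPKM, were in the same liver, ASK1+hep replicate 5.

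Aldh18a1 and Pycr1, which catalyse the first and last steps from glutamate to proline, were low throughout. Aldh18a1 was at 0.267 ± 0.0733 FPKM against 0.252 ± 0.101 FPKM (SD, n = 5 each, ASK1f/f first), with a log2 fold change of -0.02 and a 95% interval from -0.16 to 0.12 (limma, adjusted p = 0.956). Pycr1 did not pass the filter, with 2 to 12 reads per library, and was at 0.127 ± 0.0225 FPKM against 0.140 ± 0.0664 FPKM (SD, n = 5 each), with an exact permutation p = 0.706. The single match to TGATGCAA among the members was thus in a gene with almost no reads. Cth, which ends transsulfuration by releasing cysteine, was at 75.0, 87.3, 123, 79.3 and 84.1 FPKM in ASK1f/f and at 77.2, 115, 59.1, 79.7 and 108 FPKM in ASK1+hep replicates 1 to 5. The 2 highest Cth levels were in different genotypes, and the log2 fold change was -0.05 with a 95% interval from -0.48 to 0.38 (limma, adjusted p = 0.961). The log2 fold changes of Aldh18a1 and Cth were -0.0038 and -0.067 without the library labelled ASK1f/f replicate 5. Without ASK1f/f replicate 3 the sign of the Cth fold change turned, to 0.069, and without ASK1+hep replicate 3 it was 0.081.

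**Figure D4:**
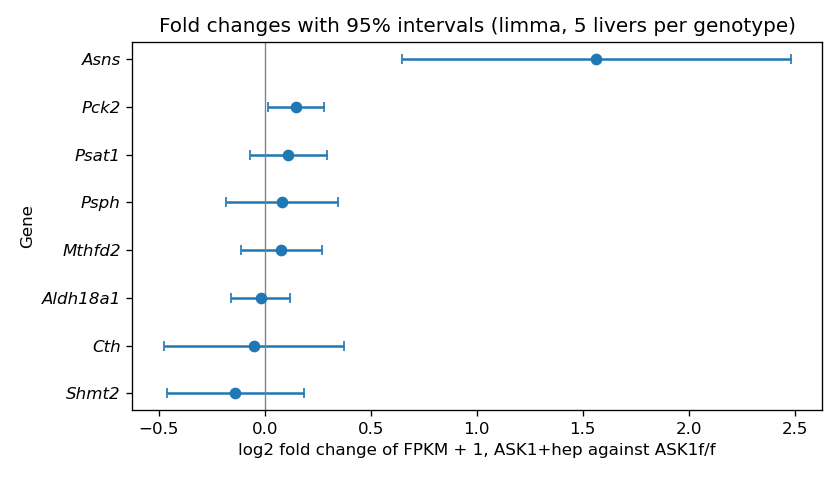
Log2 fold change of FPKM + 1 (horizontal axis), ASK1+hep against ASK1f/f, with 95% intervals from limma for the 8 genes that passed the filter. The intervals of Asns, from 0.65 to 2.48, and of Pck2, from 0.02 to 0.28, lie above 0, and those of the other genes span 0.

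Counts of the members were then set against those of all genes, as a description, since the members were chosen with earlier results known. At a limma adjusted p at or below 0.05, 0 of the 8 members and 0% of all 13306 genes were called. Fgf21, which the study reported as highly upregulated in these livers, was not called either. Its log2 fold change was 2.06 (limma, unadjusted p = 3.8e-05, adjusted p = 0.355). The adjusted threshold therefore does not set the members apart from other genes, and the authors' count test was not repeated. At an unadjusted p under 0.05, 2 of 8 members were called, both higher in ASK1+hep livers, against 5.77% of all genes in either direction and 3.05% higher in ASK1+hep. Among all genes at that threshold 52.9% were higher, against 31.4% when FPKM were rescaled by all reads, with a shift of the median of all genes from -0.0065 to -0.052. Asns kept its direction under that scaling, with a log2 fold change of 1.51, while Pck2, at 0.13, was no longer under 0.05 (limma, unadjusted p = 0.0740, adjusted p = 0.749). A log2 fold change above 0 was found for 5 of 8 members and for 48.0% of all genes, and the median log2 fold change was 0.081 over these members and -0.0065 over all genes. Groups that did not overlap, higher in ASK1+hep, were found for 0 of 8 members and 0.398% of all genes, and in either direction for 0 of 8 and 0.864%. Without the library labelled ASK1f/f replicate 5, groups without overlap, higher in ASK1+hep, were found for 1 of 8 members, Asns, and for 1.09% of all genes. For Asns this followed from the choice of the library left out, the only ASK1f/f liver above the lowest ASK1+hep liver. It is therefore no further support. The share of all genes with 4 of 5 ASK1+hep livers above every ASK1f/f liver was not counted.

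No liver was highest or lowest for all members. ASK1+hep replicate 2 had the highest level of the 10 livers for 5 members, Asns, Phgdh, Psat1, Aldh18a1 and Pck2, and lay above the median for 9 of 10. No other liver was highest for more than 2 members. ASK1+hep replicate 5 was highest for Mthfd2 and Pycr1 and lowest for Psph and Shmt2, and ASK1+hep replicate 3 was highest for Shmt2 and lowest for Aldh18a1, Pycr1 and Cth. The library labelled ASK1f/f replicate 5, high in Asns, was highest for none of the members. Mitochondrial reads made up 6.74% in ASK1+hep replicate 2 and 10.9% in ASK1+hep replicate 3, and their part in these levels was not tested.

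**Figure D5:**
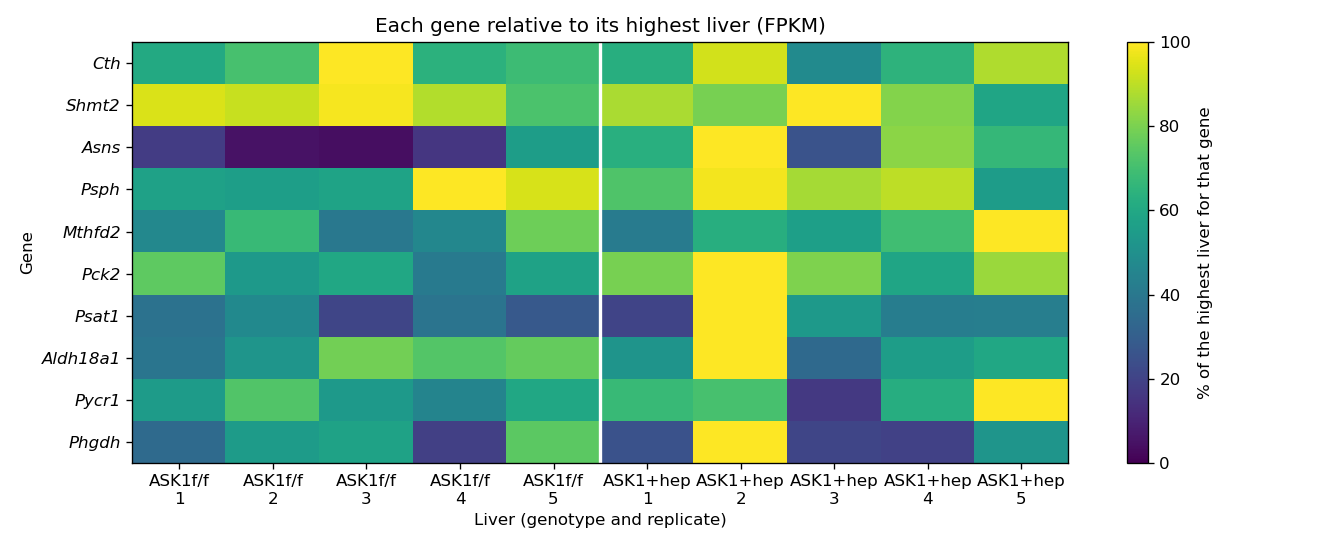
Level of each of the 10 genes in each liver as a percentage of that gene's highest liver (colour scale), with ASK1f/f livers left and ASK1+hep livers right of the white line. The column of ASK1+hep replicate 2 is brightest for 5 genes, and the Asns row is darker left of the white line than right of it, apart from ASK1f/f replicate 5 and ASK1+hep replicate 3.

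For 3 members the gene of an enzyme that runs the same reaction, in another compartment or as another isoform, was read in the same livers, and the ratio within a liver does not depend on library scaling. Shmt2 was 1.41 to 2.86 times as abundant as Shmt1, the cytosolic form, with mean ratios of 1.81 in ASK1f/f and 1.97 in ASK1+hep livers and an exact permutation p = 0.690. Pck2 was far below Pck1, the cytosolic gluconeogenic form, which was at 607.8 to 1351 FPKM and exceeded Pck2 by 1622 to 3189 times, and the difference in log2 ratio between genotypes was 0.22 with an exact permutation p = 0.238. Mthfd2 and Mthfd2l, its close relative, were at like levels, with mean ratios of 1.93 and 1.67 and an exact permutation p = 0.556. In none of these 3 comparisons, whose p-values are unadjusted, did the genotypes separate.

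Genes around the members in the same pathways did not pass the adjusted threshold either. Their counts at an unadjusted p under 0.05 are to be read against 3.05% of all genes higher and 2.72% lower in ASK1+hep livers, and their counts above 0 against 48.0% of all genes. Of 21 other serine, glycine and one-carbon genes tested, 1 was lower and 0 were higher in ASK1+hep livers at an unadjusted p under 0.05, 6 had a fold change above 0, and the median log2 fold change was -0.064. The counts were 2 lower (Aldh1l1 and Shmt1) and 1 higher (Mthfd1l) without the library labelled ASK1f/f replicate 5. The lower one over all livers was Aldh1l1, which oxidises formyl-tetrahydrofolate in the cytosol, at 270.4 ± 29.5 FPKM against 208.2 ± 27.0 FPKM (SD, n = 5 each, ASK1f/f first), with a log2 fold change of -0.38 (limma, unadjusted p = 0.0135, adjusted p = 0.812). Next in this list were Sfxn1, a mitochondrial serine carrier, at -0.24 (limma, unadjusted p = 0.0611), and Mthfd2l at 0.11 (limma, unadjusted p = 0.102). Tdh, which degrades threonine, was listed at 0.

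Of 9 other proline, ornithine and glutamate genes tested, 2 were higher and 1 was lower at an unadjusted p under 0.05, with a median log2 fold change of 0.099. Glul, glutamine synthetase, which makes the nitrogen donor of asparagine synthetase, did not overlap between the groups. It was at 312, 328, 305, 250 and 306 FPKM in ASK1f/f and at 438, 348, 485, 375 and 370 FPKM in ASK1+hep replicates 1 to 5. Its log2 fold change was 0.42 with a standard error of 0.14 (limma, unadjusted p = 0.0097, adjusted p = 0.812), and the exact permutation test gave p = 0.0079, the smallest it can give. The library labelled ASK1f/f replicate 5 was not high in Glul, and without it the log2 fold change was 0.43. Without ASK1+hep replicate 2, 1 gene of this list, Glul, was under 0.05. Oat, which links ornithine to proline synthesis, was at 270.7 ± 48.6 FPKM against 342.6 ± 54.4 FPKM (SD, n = 5 each, ASK1f/f first) (limma, log2 fold change 0.34, unadjusted p = 0.0494, adjusted p = 0.812). Prodh, which starts the breakdown of proline, was at 36.6 ± 4.27 FPKM against 28.7 ± 6.15 FPKM (SD, n = 5 each), with a log2 fold change of -0.35 (limma, unadjusted p = 0.0307, adjusted p = 0.812).

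Of 8 asparagine, aspartate and alanine genes, 0 had an unadjusted limma p under 0.05 in either direction, and their median log2 fold change was -0.048. The lowest p-values were those of Got1, which makes aspartate in the cytosol, with a log2 fold change of -0.25, of Nit2 with 0.15 and of Aspa with -0.10. Among 8 transsulfuration and cysteine genes, with a median of 0.11, 1 was higher at that threshold. This was Gss, glutathione synthetase, at 9.78 ± 1.06 FPKM against 13.4 ± 3.54 FPKM (SD, n = 5 each, ASK1f/f first), with a log2 fold change of 0.39 (limma, unadjusted p = 0.0372, adjusted p = 0.812), and without ASK1+hep replicate 2 or replicate 3 its unadjusted limma p was 0.0897 or 0.0839. Csad, which leads cysteine to taurine, was at a log2 fold change of 0.54 with a standard error of 0.42, and Cbs, the step before Cth, at 0.20 with one of 0.16.

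Of 7 phosphoenolpyruvate and pyruvate genes, 1 was lower at an unadjusted p under 0.05, and the median log2 fold change was -0.022. Pklr, the liver pyruvate kinase that consumes the product of Pck2 and is known to be induced by carbohydrate, was at 107, 71.9, 71.4, 70.8 and 56.4 FPKM in ASK1f/f and at 53.7, 34.9, 51.8, 44.5 and 42.1 FPKM in ASK1+hep replicates 1 to 5. All 5 ASK1+hep livers lay below all ASK1f/f livers, and the lowest of the ASK1f/f livers was the library labelled replicate 5. The log2 fold change was -0.71 with a standard error of 0.17 (limma, unadjusted p = 0.0015, adjusted p = 0.712), and the exact permutation test gave p = 0.0079, the smallest it can give. Without the library labelled ASK1f/f replicate 5 the log2 fold change was -0.80 (limma, adjusted p = 0.283). Pck1 and Mdh2 had log2 fold changes of 0.27 and 0.13.

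Among 16 ATF4 and stress response regulators, 13 had a log2 fold change above 0 and 2 were higher at an unadjusted p under 0.05, with a median of 0.24, against 48.0% and 3.05% of all genes. ASK1+hep replicate 3, the library with the largest mitochondrial share and the fewest genes with reads (18391), had the highest level of 11 of the 16. It was also highest for 6 of 21 serine, glycine and one-carbon genes and 3 of 9 proline, ornithine and glutamate genes. In the remaining pathway lists it was highest for 3 of 8 asparagine, 4 of 8 transsulfuration and 4 of 7 phosphoenolpyruvate genes. The size that divides its FPKM was 0.890 of its reads on genes, the lowest such ratio. The share of all genes that were highest in this library was not counted. Without that library 14 of 16 were above 0, the median was 0.12 and the same 2 genes, Trib3 and Ppp1r15a, were under 0.05. Trib3, a pseudokinase that ATF4 is known to induce, was at 3.61, 1.43, 4.06, 2.35 and 3.91 FPKM in ASK1f/f and at 4.28, 3.64, 8.50, 4.65 and 6.90 FPKM in ASK1+hep replicates 1 to 5. Thus 4 of 5 ASK1+hep livers lay above every ASK1f/f liver, with a log2 fold change of 0.70 and a standard error of 0.24 (limma, unadjusted p = 0.0150, adjusted p = 0.812). Ppp1r15a, a phosphatase subunit that restores translation after stress, was at 3.71 ± 0.876 FPKM against 6.01 ± 2.26 FPKM (SD, n = 5 each, ASK1f/f first), with a log2 fold change of 0.54 (limma, unadjusted p = 0.0235, adjusted p = 0.812). Sesn2, a sensor of leucine and stress, was at 0.32 (limma, unadjusted p = 0.0739). Trib3 and Ppp1r15a were both highest in ASK1+hep replicate 3, where Asns was lowest in its group, and Sesn2 was highest in the library labelled ASK1f/f replicate 5, at 4.41 FPKM. Without that library the log2 fold change of Sesn2 was 0.48 (limma, unadjusted p = 0.00066, adjusted p = 0.283), and 5 of 16 regulators, Atf3, Nupr1, Ppp1r15a, Sesn2 and Trib3, were higher at an unadjusted p under 0.05, against 3.07% of all genes. These values without single livers were added after the data were seen.

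The genes whose log2(FPKM + 1) was most like that of Asns across the 10 livers, among 13305 genes, were Kcmf1 (Pearson r = 0.944), H2-Q2 (r = 0.922), 3930402G23Rik (r = 0.910), Cyp2d41-ps (r = 0.893) and C030015A19Rik (r = 0.892). These correlations are a description over livers that also differ in genotype, and are given without a test. H2-Q2 has near-identical relatives and Cyp2d41-ps is a pseudogene, so their reads may be shared with other genes. Of the members, Pck2 ranked 512th (r = 0.556), Psph 828th (r = 0.482), Mthfd2 928th (r = 0.463) and Psat1 1632nd (r = 0.358). Aldh18a1 (r = 0.221) and Cth (r = 0.015) had little likeness to Asns, and Shmt2 ran the other way (r = -0.643).

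Markers of other cell types were read beside these levels, since in bulk tissue fewer cells of a type and less RNA per cell cannot be told apart. Asparagine synthetase is abundant in pancreas, and of 11 pancreatic acinar markers Amy2a1 and Amy2a5 were at 0 in all livers, while Cpa1, Cpb1, Pnlip, Ctrb1, Prss2, Try4 and Clps had 0 to 11 reads per library. The summed acinar level, 7.73 to 20.3 FPKM in ASK1f/f and 10.7 to 19.8 FPKM in ASK1+hep livers, was nearly all Cela1 and was lowest in the library labelled ASK1f/f replicate 5. That library had the highest sums of cholangiocyte, Kupffer cell and neutrophil markers of its group, at 32.7, 143 and 15.8 FPKM, and also of adipocyte and proliferation markers, at 52.9 and 1.15 FPKM. Sums in ASK1+hep livers were 15.6 to 28.3 FPKM for 5 cholangiocyte markers, 53.6 to 131 FPKM for 6 Kupffer cell and macrophage markers and 2.20 to 8.11 FPKM for 4 neutrophil markers. Of the 6 Kupffer cell and macrophage markers 0 had a log2 fold change above 0, with a median of -0.22 and 0 at an unadjusted limma p under 0.05, and the lowest sum was that of ASK1+hep replicate 2, the liver with the highest Asns and Pck2 levels. That median was -0.12 without the library labelled ASK1f/f replicate 5. Stellate and fibroblast, endothelial and lymphocyte markers overlapped in their sums, with ranges of 19.3 to 29.6, 20.97 to 29.0 and 1.66 to 2.69 FPKM in ASK1f/f against 15.5 to 28.7, 15.9 to 29.9 and 1.04 to 3.83 FPKM in ASK1+hep livers. Of the 4 adipocyte markers Lep was at 0, Adipoq and Plin1 had at most 3 reads, and Cidec, which fat-laden hepatocytes express as well, made up the sum, at 3.96 to 52.9 FPKM in ASK1f/f and 11.9 to 132.7 FPKM in ASK1+hep livers. Proliferation markers summed to 0.304 to 1.15 FPKM and 0.516 to 0.915 FPKM. Markers with an unadjusted limma p under 0.05 were all higher in ASK1+hep livers and were 1 of 6 hepatocyte markers (Ttr), 1 of 2 acinar markers tested (Cela2a, with 7 to 16 reads per library), the 1 adipocyte marker tested (Cidec) and 1 of 3 proliferation markers tested (Cdk1), and 0 passed the adjusted threshold. These counts are to be read against 3.05% of all genes higher. Ttr was not under 0.05 without the library labelled ASK1f/f replicate 5 or without ASK1+hep replicate 2 or 3. Cidec and Cdk1 were not under 0.05 without ASK1+hep replicate 3. When the library labelled ASK1f/f replicate 5 was left out, 2 stellate and fibroblast markers, Dcn and Reln, were lower at that threshold. The part of these cell types in the levels of Asns and Pck2 was not tested.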

How the data were processed

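Bulk liver RNA sequencing of 10 mice was analysed. According to the study's methods, poly-A RNA was sequenced, cleaned reads were mapped with Hisat2 and counted with FeatureCounts, and the authors deposited FPKM per gene; the build and annotation are not given in the sources used here. Of 54532 gene IDs, 54409 were in GENCODE M21 (GRCm38), 98.33% of them at the same coordinates. FPKM times gene length were whole multiples of one step in each library (tolerance 0.1 reads, 100% of values), which gave reads for the filter, the depth and limma-voom. For the main comparison, log2(FPKM + 1) was fitted by limma 3.58.1 (R 4.3.3) with its trend option, and p-values were adjusted by Benjamini-Hochberg over the 13306 genes that reached 10 reads, after scaling to the median library total, in 5 or more livers, and 15 reads overall. The authors' count test was not repeated. Single genes and ratios were compared with exact two-sided permutation tests. The comparison was tested on simulated data beforehand. Libraries of a group differed by far more than sampling noise (lowest chi-square per degree of freedom 19.1).

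Genotypes came from the labels. The members and gene lists were chosen with earlier results of these data known. Genes named are the members, Atf4, Map3k5, the 3 isozyme genes, up to 3 genes of each list with the lowest unadjusted p, the 5 genes most like Asns by Pearson r, the cell type markers and genes overlapping a member. Fgf21 was added after the data were seen. Alternatives were no filter, a minimum of 10 reads in each liver, a pseudocount of 0.1, limma-voom, the same with quality weights, scaling by all reads, a replicate block, the animal tag prefix as covariate, and leaving out each liver in turn. For gene lists and list genes, values without ASK1f/f replicate 5 or ASK1+hep replicate 2 or 3 were chosen after seeing the data. A further isozyme comparison and list gene that were planned are not reported here.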

Additional observations from a re-analysis of the deposited data

Results flagged for a closer look

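In 30 groups of 5 livers, the gap between an extreme liver and its nearest neighbour was divided by the range of the group, and 3 groups passed the limit of 0.71. For normally distributed values, chance alone would place about 1 in 20 groups past it. The gaps were taken on FPKM without logs, so this share is only a guide. Asns in the library labelled ASK1f/f replicate 5, at 5.77 FPKM, had a gap of 0.727 of the range. Map3k5 in the same library, at 19.8 FPKM, had a gap of 0.856. Cth in ASK1f/f replicate 3, at 123 FPKM, had one of 0.744, on the high side. Why these livers stood apart was not tested.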

How the results depend on the processing

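Over 18 alternatives, Asns, Pck2, Psat1, Psph, Shmt2 and Mthfd2 kept the direction of their fold changes in every one that gave a value, and no member passed the adjusted threshold. Their sizes moved when a liver was left out, from 0.038 (without ASK1+hep replicate 2) to 0.17 for Psat1, 0.039 to 0.15 for Psph, -0.22 to -0.028 (without ASK1+hep replicate 5) for Shmt2 and 0.017 (without ASK1+hep replicate 5) to 0.13 for Mthfd2. At least 10 reads in every liver left no value for Psat1 and Aldh18a1. A pseudocount of 0.1 or limma-voom gave larger changes for low genes, at 0.40 or 0.48 for Pck2 and 0.35 or 0.41 for Psat1. For Mthfd2 they gave 0.19 or 0.21. Cth turned to 0.0093 with limma-voom with quality weights and ranged from -0.16 to 0.081 when each liver was left out in turn, and Aldh18a1 ranged from -0.065 to 0.013, turning without ASK1+hep replicate 3. The members at an unadjusted p under 0.05 went from 2 to 1 with limma-voom with quality weights and to 1 with scaling by all reads, and ranged from 1 to 2 when livers were left out, with 1 without ASK1f/f replicate 2 or 4 or ASK1+hep replicate 2 or 5; the remaining one was Asns each time. Genes past the adjusted threshold numbered 0 in the main comparison and 1 with limma-voom with quality weights, and ranged from 0 to 1 with a liver left out (1 without ASK1+hep replicate 5); the gene, named after its values were seen, was Fgf21 both times. Genes at an unadjusted p under 0.05 numbered 768, 1222 with no filter, and 557 to 1724 with a liver left out (1178 without ASK1+hep replicate 1, 1724 without ASK1+hep replicate 5). The cause of these moves was not tested, apart from the larger number of genes tested with no filter. With the replicate block the count was 880, 2 members were at an unadjusted p under 0.05, and Asns had an adjusted p of 0.700 (limma). Same-numbered mice carry consecutive tags in 4 of 5 pairs, but the labels do not say that a number marks a litter or batch. The correlation of their deviations was above 0 in 5 of 5 pairs and over 0.1 in 2. Its mean was 0.107 for same numbers and -0.027 for different numbers, and 6 of 10 livers correlated best with their own number. These values do not exclude a pairing. Since the labels name none, the main comparison was left unpaired, and the replicate block is given as an alternative. Depth limits Phgdh, Pycr1, Psat1 and Aldh18a1, with as few as 2 to 8 reads in a library.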
